A study of Mus musculus with 2 samples.

Results

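The 7 microRNA genes described here are Mir139, Mir149, Mir744, Mir652, Mir22, Mir324 and Mir330, each a gene that stands alone and lies within another, longer gene. They were chosen by their high counts in these libraries, by their place in or at a host gene and as single loci outside large microRNA families, and they are 7 of 2202 microRNA genes counted. Their high levels, their few relatives in sequence and their lack of near neighbours are therefore a description and not a result. The libraries came from tissue labelled as a layer of the hippocampus of B6CASTF1/J mice, an F1 hybrid strain, all female and 10 days old. There was a single group of 2 biological replicates, each made from its own set of 3 females under a common donor entry, with no treatment and no other genotype. RNA of under 30 nt was sequenced.

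A microRNA is cut from a hairpin in a longer transcript by Drosha in the nucleus and Dicer in the cytoplasm, and 1 strand of the resulting duplex guides Argonaute to messenger RNAs. Bases 2 to 8 of that strand, the seed, set most of the pairing with targets. A hairpin within a gene can be made from the transcript of that host gene, so the microRNA and the host's messenger RNA may share a promoter, although separate promoters are also known. Among the 7, miR-139-5p is best known as a brake on growth factor signalling in tumours, miR-22-3p from heart muscle growth and from neurons, and miR-324-5p as a regulator of Hedgehog signalling and of a potassium channel of hippocampal neurons.

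The mature sequences of both arms of each hairpin are printed because a count belongs to the hairpin and does not tell its arms apart. They were taken from RefSeq (GRCm38.p6), where all 7 genes matched, and the capitals mark the seed.
miR-139-5p: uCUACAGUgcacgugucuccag
miR-139-3p: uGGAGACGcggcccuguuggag
miR-149-5p: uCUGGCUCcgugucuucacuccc
miR-149-3p: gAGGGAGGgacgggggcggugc
miR-744-5p: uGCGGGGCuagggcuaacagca
miR-744-3p: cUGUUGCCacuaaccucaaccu
miR-652-5p: cAACCCUAggagggggugccauuc
miR-652-3p: aAUGGCGCcacuaggguugug
miR-22-5p: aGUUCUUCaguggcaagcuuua
miR-22-3p: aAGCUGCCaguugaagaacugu
miR-324-5p: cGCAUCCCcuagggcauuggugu
miR-324-3p: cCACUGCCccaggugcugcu
miR-330-5p: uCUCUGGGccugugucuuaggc
miR-330-3p: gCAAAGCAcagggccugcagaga

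No seed was shared between members. Of the 14 arms, 11 had a seed that no other mouse gene in the RefSeq table carried, which follows in part from the choice of genes outside large families. Detected genes, here and later, are those with 10 or more sense counts in both libraries. Of the 722 arms of detected genes, 463 (64.1%) likewise had a seed that no other gene carried. Each mature sequence of the members occurred in 1 hairpin of the table. The arms with a partner were miR-330-5p, miR-330-3p and miR-149-3p.

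The partner of miR-330-5p was miR-326-3p, whose hairpin lies in an intron of Arrb1, the gene of beta-arrestin 1, and the pair is shown because their match runs past the seed. The run of equal bases from base 2 was 9 nt long, and 12 of 21 bases were equal when both were aligned at their first base.
miR-330-5p: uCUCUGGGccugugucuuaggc
miR-326-3p: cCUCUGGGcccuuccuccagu
Mir326 had 585 CPM in replicate 1 against 710 CPM in replicate 2, where CPM are counts scaled to a total of 1000000 sense counts over all microRNA genes. Mir330 had 8.77 and 8.48 times the counts of Mir326. The partner of miR-330-3p, Mir6240, had 83 and 26 counts. Of the 4 genes that share the seed of miR-149-3p, Mir1943 had 13 and 4 counts and Mir7016 had 10 and 7. The others, Gm27775 and Gm27740, had none in either library. Both carry the identical arm miR-6967-5p, so a read of it cannot be assigned to either gene and goes uncounted. Their zeros therefore do not show that this arm was absent. Leaving Gm27775 and Gm27740 aside, the member had the most counts of the genes with each of these seeds in both libraries. The choice for high counts favours this. Counts are of whole hairpins, so the levels of the arms with a shared seed were not measured.

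The following 3 hairpins are shown for the member with the highest level (Mir139), the most GC-rich arm (miR-149-3p) and the hairpin nearest to a start of transcription (Mir330). Capitals mark the mature arms, lower case marks the flanks and the loop, and the strand is plus for all of them.
Mir139, chr7:101475376-101475443: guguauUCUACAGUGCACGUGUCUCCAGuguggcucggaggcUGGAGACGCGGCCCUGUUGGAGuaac
Mir149, chr1:92850378-92850443: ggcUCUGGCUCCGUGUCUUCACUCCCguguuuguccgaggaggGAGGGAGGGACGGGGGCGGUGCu
Mir330, chr7:19181465-19181562: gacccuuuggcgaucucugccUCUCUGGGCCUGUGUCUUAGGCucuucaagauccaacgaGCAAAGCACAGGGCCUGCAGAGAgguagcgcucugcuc
The arm miR-149-3p had 81.8% G and C, where the median arm of a detected gene had 50.0%. At the other end, miR-22-5p had 40.9%. GC content of the whole hairpin was above the median of the 429 detected genes (52.1%) in 6 of 7 members, from 50.0% in Mir652 to 68.2% in Mir149. Predicted folding energy per base was lower, that is, the fold was predicted to be more stable, than the detected median of -0.433 kcal/mol in 6 of 7 members. Mir149 had the lowest value of them at -0.556 and Mir324 the highest at -0.415. Mir330, at -0.434, and Mir22, at -0.441, were barely below the detected median. The members' own median of -0.448 lay between the quartiles of the detected genes, -0.483 and -0.384.

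The hosts differed in what they encode, and the hairpins in where they sit (all positions are GRCm38 with the GENCODE M21 annotation). Mir139 (ENSMUSG00000065446.1) lies in intron 2 of Pde2a, the gene of phosphodiesterase 2A, which breaks down cyclic AMP and cyclic GMP. The hairpin is 53.7 kb from the start of transcript Pde2a-202, within an intron of 29.9 kb, and it is also covered by an intron of the predicted read-through gene Gm45837. Mir149 (ENSMUSG00000065470.1) lies in intron 1 of Gpc1, the gene of the heparan sulfate proteoglycan glypican-1, 18.7 kb from the start. Mir744 (ENSMUSG00000076460.1, chromosome 11, 65734733 to 65734832, minus strand) lies in intron 3 of Map2k4, which encodes a kinase upstream of JNK. Mir652 (ENSMUSG00000076011.1, chromosome X, 142739000 to 142739097, plus strand) lies in intron 2 of Tmem164, which encodes a transmembrane protein, 57.6 kb from the start and in an intron of 69.1 kb.

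The remaining 3 hairpins sit near or in exons. Mir22 (ENSMUSG00000065529.1, chromosome 11, 75463716 to 75463810, plus strand) lies in exon 2 of the non-coding gene Mir22hg, in both annotated transcripts of it that reach the hairpin. A non-coding transcript of the neighbouring gene Tlcd2 also has the hairpin in an exon. Mir324 (ENSMUSG00000065534.1, chromosome 11, 70012043 to 70012131, plus strand) lies in the last of 16 exons of Dvl2, in the 3′ UTR, and ends 170 bp before the end of the transcript. Dvl2 encodes a Dishevelled protein of Wnt signalling. On the opposite strand, an intron of Acadvl, which encodes an enzyme of fatty acid oxidation, covers Mir324 as well. Mir330 (ENSMUSG00000065543.1) lies in intron 1 of Eml2-203, the principal transcript of Eml2, which encodes a microtubule-binding protein. The hairpin begins 295 bp after the start of that transcript, inside an intron of 485 bp, and in 1 of 7 annotated Eml2 transcripts over the hairpin it falls in an exon. The label of microRNAs within host genes thus held for all 7 on the same strand, with 4 only in introns of coding genes, 1 in a first intron close to the start, 1 in a 3′ UTR and 1 in a non-coding exon.

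**Figure D1:**
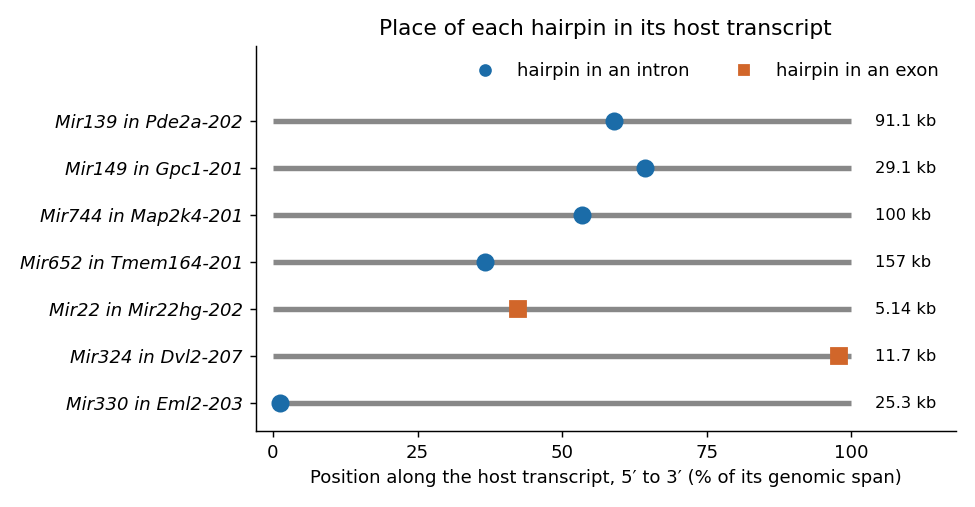
Place of each hairpin along its host transcript, with the x axis from the start (0) to the end (100) of the transcript as a percent of its genomic span and the span in kb at the right. Circles are hairpins in introns and squares hairpins in exons; Mir330 sits at 1.17%, Mir324 at 97.8% and the other hairpins between 36.7% and 64.3%.

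None of the 7 has another microRNA gene on its strand within 10 kb, and none is overlapped by one on the opposite strand. Such an overlap was found for 27 of the 429 detected genes. The nearest gene on the same strand was 31.2 kb away from Mir324, 87.6 kb from Mir22, 94.6 kb from Mir330 and 406 kb or more from the other members. The longest stretch that a member shares with any other microRNA gene was under 18 nt in all 7, as the choice of single loci outside large families favours. Most detected genes were alike in this, since 97 of 429 (22.6%) shared 18 nt or more and the median was 13 nt. Shared sequence bears on the counts, because reads that match several places, 43.2% of all reads in replicate 1 and 39.3% in replicate 2, are in no gene count. Whether reads of the members match elsewhere in the genome was not tested.

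Replicate 1 held 5479267 sense counts on microRNA genes of 15058588 reads, and replicate 2 held 3563226 of 9483409. The libraries were not copies of each other (a chi-square statistic of 520 per detected gene, where counting error alone gives about 1). Of 6 neuronal microRNAs listed as a check of the tissue, 4 were abundant, from 4273 ± 522 CPM (SD, n = 2) for Mir137 to 8030 ± 685 CPM for Mir132, and none of them marks the hippocampus in particular. Mir124a-1 and Mir9-3, from multi-copy genes, had 3.72 and 58.3 CPM from uniquely matched reads. Markers of other cells were present as well, with Mir126a of endothelium at 8144 ± 224 CPM, Mir449a of choroid plexus and ependyma at 1931 ± 290 CPM and Mir219a-2 of oligodendrocytes at 1004 ± 345 CPM. Mir451a of red cells, Mir122 of liver and Mir142 and Mir223 of myeloid cells had less CPM in each library than Mir9-3 had on average, and Mir206 of skeletal muscle had 68.6 ± 40.3 CPM. The members' cell types were not measured, and in whole tissue more cells of a type and more RNA per cell cannot be told apart.

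Together the members held 13.7% of the sense counts in replicate 1 (exact Clopper-Pearson 95% interval 13.66% to 13.72%) and 15.3% in replicate 2 (15.25% to 15.32%). These intervals stand for counting error alone, as no molecular identifiers separate PCR copies from molecules. The SD between the libraries, 1.13 percentage points around a mean of 14.5%, was far wider. Mir139 alone made up 38.1% and 43.6% of the members' counts. The highest member, Mir139, exceeded the lowest, Mir330, by 10.2 times in replicate 1 and 11.1 times in replicate 2. Counts of different genes were compared without division by gene length, since mature microRNAs are of nearly the same length. Whether microRNAs of different sequence were recovered equally well was not measured. Comparisons between genes, here and elsewhere, are therefore of counts and not of amounts of RNA.

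Mir139 had 286036 and 237593 counts, or 52203 CPM in replicate 1 and 66679 CPM in replicate 2 (mean 59441 ± 10236, SD, n = 2), and ranked 3 and 2 among all genes. Both of its values lay above every value of the other members. Mir149 had 108224 and 109310 counts, or 19752 and 30677 CPM (25214 ± 7726). It ranked 13 in replicate 1 and 8 in replicate 2, so nearly equal counts stood for a higher share in the shallower library. Mir744 had 125368 and 50594 counts, or 22880 and 14199 CPM (18540 ± 6139). Its position moved the other way, from rank 10 to rank 15.

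In CPM, Mir652 was the steadiest of the 7, with 72026 and 47271 counts, or 13145 and 13266 CPM (13206 ± 85.7, SD, n = 2). Mir22 had 72801 and 36589 counts, or 13287 and 10269 CPM (11778 ± 2134). Mir324 had 57651 and 41749 counts, or 10522 and 11717 CPM (11119 ± 845). These 3 levels lay close together, and their order changed between the libraries: Mir22 was the highest of them in replicate 1 and the lowest in replicate 2. Mir330 was the lowest member in both, with 28107 and 21465 counts, or 5130 and 6024 CPM (5577 ± 632).

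**Figure D2:**
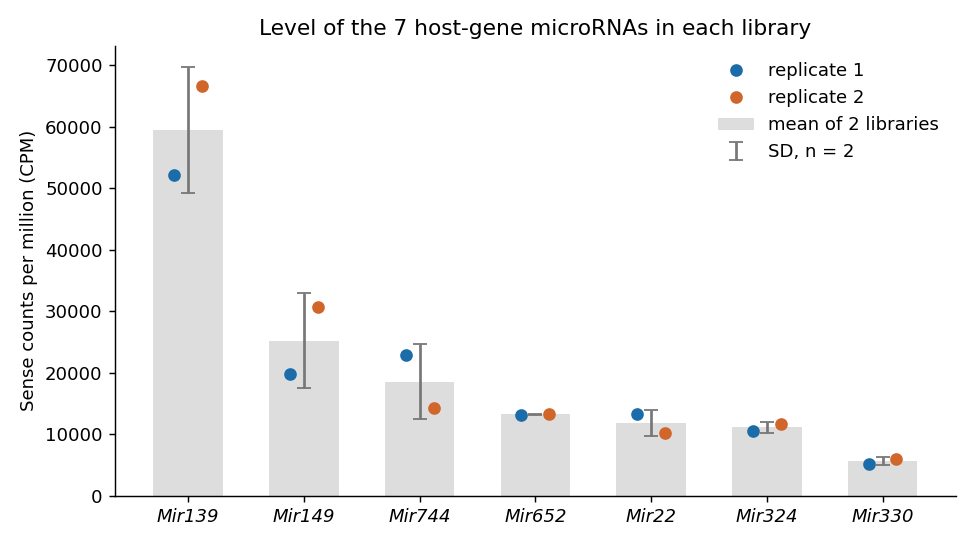
Level of each member (y axis, CPM), with blue points for replicate 1, orange points for replicate 2, grey bars for the mean and error bars for the SD of the 2 libraries. Mir139 stands above all others in both libraries, Mir149 and Mir744 swap places, and the 2 points of Mir652 nearly coincide at 13145 and 13266 CPM.

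By mean level the order was Mir139, Mir149, Mir744, Mir652, Mir22, Mir324 and Mir330. The ranges of neighbours in this order did not overlap for Mir139 and Mir149, for Mir744 and Mir652, or for Mir324 and Mir330. They overlapped for Mir149 and Mir744, for Mir652 and Mir22, and for Mir22 and Mir324, so these orders were not resolved with 2 libraries. Mir330 ranked 36 by mean level, directly below Mir130a at 5684 ± 656 CPM and above Mir23a at 5488 ± 2214 CPM, neither of which is a member. The choice of members thus follows no single level: 9 other detected genes without a neighbour within 10 kb, Mirlet7i, Mirlet7g, Mir126a and Mir187 among them, also stood above Mir330.

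All 7 members differed between the libraries beyond counting error, 4 higher in replicate 2 and 3 higher in replicate 1. This was tested with a two-sided exact binomial test on TMM-scaled counts with Benjamini-Hochberg adjustment over the 429 detected genes, and it compares 2 libraries of 1 group, not conditions. Of all detected genes, 61.3% were called, 28.7% as higher in replicate 2 and 32.6% as higher in replicate 1. At the members' depth nearly every gene was called: of the 76 genes whose mean count was 10000 or more, 74 (97.4%) passed. The count of 7 of 7 is therefore close to what genes of such depth gave, and the size of each difference tells more.

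The widest differences were those of Mir744, Mir149 and Mir22. For Mir744 the log2 ratio of replicate 2 to replicate 1 was -0.75 (95% interval from counting error -0.77 to -0.74), or 1.68-fold lower in replicate 2. Mir149 had a log2 ratio of 0.57 (0.56 to 0.59), 1.49-fold higher in replicate 2. Mir22 had -0.43 (-0.45 to -0.42), 1.35-fold lower. The adjusted p of each of these genes, and that of Mir139, was below 1e-300 by the exact binomial test. Mir139, the member with the most counts, had a log2 ratio of 0.29 (0.28 to 0.30), 1.22-fold higher in replicate 2.

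Smaller differences were found for the other members. Mir330 had a log2 ratio of 0.17 (0.14 to 0.20, exact binomial test, adjusted p = 1.45e-37) and Mir324 of 0.09 (0.08 to 0.11; adjusted p = 5.9e-23). Mir652 had -0.05 (-0.07 to -0.03; exact binomial test, adjusted p = 2.59e-08), a difference of 1.03-fold. The sign of Mir652 rested on the scaling: with library totals in place of TMM its log2 ratio was 0.01 and was not called (adjusted p = 0.172, exact binomial test).

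Set against other genes, the spread of the members was ordinary. Their median absolute log2 ratio was 0.29, beside 0.33 for all detected genes and 0.24 for the 76 genes of at least 10000 mean counts. No member reached a 2-fold difference, which 4 of the 76 did. Ordered by absolute log2 ratio from the widest, Mir744 was number 12 of the 76, Mir149 number 13, Mir22 number 19, Mir139 number 31, Mir330 number 50, Mir324 number 61 and Mir652 number 73. The coefficient of variation between libraries that edgeR estimated over the detected genes was 0.311, and the members were not tested against it, since there is no second group.

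**Figure D3:**
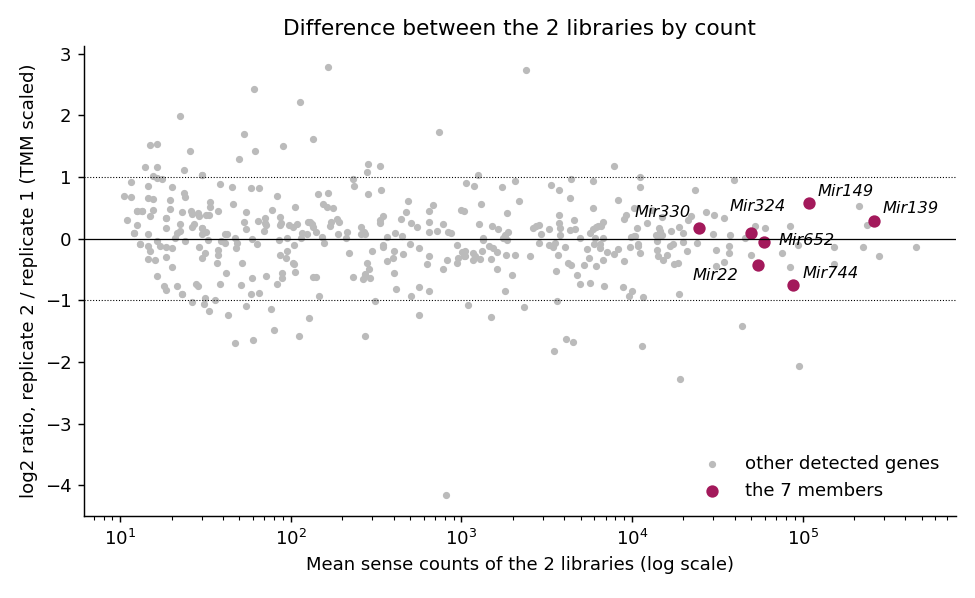
The log2 ratio of replicate 2 to replicate 1 (y axis, TMM scaled) against the mean sense count (x axis, log scale) of the detected genes, with the 7 members in colour and dotted lines at 2-fold. The members lie between -0.75 for Mir744 and 0.57 for Mir149, inside the dotted lines.

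Ratios of members within a library need no scaling. Mir149 had 0.863 times the counts of Mir744 in replicate 1 and 2.16 times in replicate 2, a change of 2.5-fold that reversed their order. The ratio of Mir139 to Mir744 went from 2.28 to 4.70. By contrast, Mir324 stood at 2.05 and 1.94 times Mir330, and Mir652 at 1.25 and 1.13 times Mir324. Of the members on chromosome 11, Mir22 had 1.26 times the counts of Mir324 in replicate 1 and 0.876 times in replicate 2. Members within coding introns were found on both sides, with Mir139 and Mir149 higher and Mir744 lower in replicate 2.

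Reads on the opposite strand were almost absent at these loci. The 7 members had no antisense count in replicate 1, and in replicate 2 only Mir324 had any, with 2. Counts made without regard to strand therefore equalled the sense counts in all but that gene, which had 41751 in place of 41749. Over all microRNA genes, antisense counts came to 321748 in replicate 1 and 215587 in replicate 2. The trait was not particular to the members, as the 14 other host-gene microRNAs listed below had no antisense count in either library. These libraries hold RNA of under 30 nt, so they do not measure transcripts such as that of Acadvl, which runs opposite to Mir324.

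A list of 14 other microRNAs known to lie in host genes set the members among their kind. All 14 were detected, and 13 of them lie in a gene on their strand in this annotation; Mir484 had no such host. As a group they held 3.05% ± 0.322 of the sense counts (SD, n = 2), with a median of 1195 CPM, beside a median of 13206 CPM for the members, which were chosen for high counts. Only Mir342, in an intron of Evl, at 8246 and 6619 CPM, and Mir151, in an intron of the focal adhesion kinase gene Ptk2, at 7525 and 5793 CPM, had means above that of Mir330. The others ran from Mir361, in an intron of Chm, at 4376 and 4395 CPM, to Mir340, in an intron of Rnf130, at 170 and 99.1 CPM.

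In the list 3 genes, Mir185, Mir140 and Mir340, had wider differences between the libraries than any member had. Mir185, in an intron of Tango2, stood at 158 and 1102 CPM, a log2 ratio of 2.74, and Mir140, within the ubiquitin ligase gene Wwp2, at 3446 and 1080 CPM, a log2 ratio of -1.74. By the same exact binomial test 13 of 14 were called, 6 higher in replicate 2 and 7 higher in replicate 1. The share called was 61.3% of all detected genes and 82.4% of genes with at least 100 counts in each library. Mir874 was the one not called, with a log2 ratio of 0.01 (adjusted p = 0.763). The median absolute log2 ratio of the list was 0.23, beside 0.29 for the members.

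**Figure D4:**
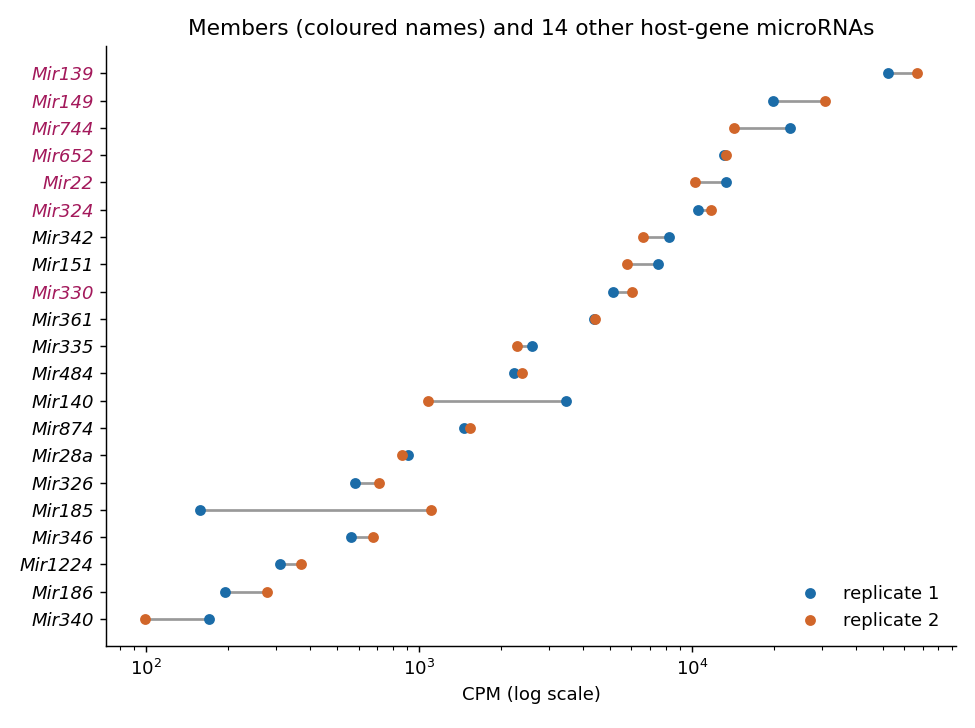
CPM in each library (x axis, log scale) of the 7 members (coloured names) and 14 other host-gene microRNAs (black names), with blue points for replicate 1, orange points for replicate 2 and a line between them. Mir342 and Mir151 lie above Mir330, and Mir185 and Mir140 have the longest lines.

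The genes most like each member in level were named by the distance of log2(CPM + 1) over the 2 libraries, which with 2 points describes level and little else. Nearest to Mir139 was Mir99a, at 48217 and 58809 CPM, and nearest to Mir744 was Mirlet7e, at 20583 and 15636 CPM. Mir149 had the widest distance to its nearest gene, 0.60 to Mir433, at 17177 and 20723 CPM. Mir23b was nearest to Mir652, Mir541 to Mir22, Mir125a to Mir324 and Mir130a to Mir330. None of these nearest genes was itself a member.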

How the data were processed

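MicroRNA-seq libraries of 2 biological replicates were used, 1 file each. Each deposited file holds unnormalized counts by microRNA gene in 3 columns (without regard to strand and for each strand). Notes deposited beside them name the build (mm10) and annotation (GENCODE M21). The sources used here do not give the aligner, counting program or filters. Sense was the strand column with the larger gene total. Rows without a gene (multiply matched, unmapped at 14.2% and 18.0%, outside genes at 6.16% and 5.17% of reads) were left out.

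CPM were sense counts per 1000000 sense counts. Scaling used TMM (edgeR 4.0.16), with DESeq2 1.42.0 size factors or library totals as alternatives. Ratios add 0.5 counts. Genes with at least 10 counts in each library were tested with a two-sided exact binomial test (SciPy 1.17.1), adjusted over all of them at 0.05, after a check on simulated data. Hairpins were folded with RNAfold 2.7.2. Host positions are for the principal (otherwise longest) transcript. Other alternatives were count minimums, counts without regard to strand, TMM without the members, all reads as denominator, each replicate left out and Mir139 left out. The genes named are the members, the list of 14, genes sharing a seed, nearest genes by level, the neighbours of Mir330 in rank, marker genes, and Mirlet7i, Mirlet7g and Mir187, named after their values were seen. Members and lists were chosen with earlier results of these data known.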

Additional observations from a re-analysis of the deposited data

How the results depend on the processing

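All 7 members were called under DESeq2 size factors, counts without regard to strand, TMM without the members and other count minimums, and 6 with library totals, where Mir652 reversed to a log2 ratio of 0.013. The other 27 ratios under alternative scalings or counts kept sign and call. Which member was steadiest did depend on the scaling. With DESeq2 size factors the log2 ratio of Mir324, 0.049, was closer to no change than that of Mir652, -0.093. The share of detected genes called was 35.3% with no count filter and 82.4% at a minimum of 100 counts, because other genes were tested. Of all calls, 46.8% were higher in replicate 2 with TMM and 52.7% with library totals.

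The combined share ranged from 13.69% to 15.28% with 1 replicate left out. It was 5.362% of all reads and 8.543% without Mir139, both by construction, and 15.41% of counts without regard to strand, where Mir652 had a mean of 14042 CPM. No paired analysis was possible because there is 1 group. With 2 libraries, spread and not depth limited the precision.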

Other observations

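The members were set among the detected genes by type of locus. Of the 253 detected genes with no other microRNA gene within 10 kb on their strand, 141 were classed in introns of coding genes. Exons of other overlapping genes were not considered in this class. The 141 had a median of 28.8 CPM and held 23.9% ± 0.664 of the sense counts (SD, n = 2). Mir139, Mir149, Mir744 and Mir652 made up 46.1% of that class in replicate 1 and 51.2% in replicate 2. Without these 4 the median of the class was 23.2 CPM, and the members had been picked for high counts. Mirlet7g, in an intron of Wdr82, at 49733 ± 1710 CPM, had a higher mean than 3 of these 4, and Mir342, Mir151 and Mir128-1 came after them.

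A further 45 such detected genes overlap an exon of any transcript of a coding gene, and held 4.47% ± 0.288. Mir22, Mir324 and Mir330 are among them, Mir22 and Mir330 only through non-coding transcripts. Detected genes with a neighbour within 10 kb numbered 176 and had a higher median, 272 CPM, than the 253 without one, 33.7 CPM. In all, the 7 members held 33.6% and 37.9% of the counts of the genes without a neighbour.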
